A study of Mus musculus with 6 samples.

Results

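The D cyclin genes Ccnd1, Ccnd2 and Ccnd3, the E cyclin genes Ccne1 and Ccne2, and the kinase genes Cdk2, Cdk4 and Cdk6 were read from the probes whose platform gene symbol is one of these 8 names. They accounted for 9 of the 37932 probes and 8 of the 21878 named genes on the arrays. Each had 1 probe except Ccnd3, which had 2. The study profiled ovarian tumours from mice engineered for the PGR-B isoform of the progesterone receptor, on 6 arrays labelled with Cy3 alone. All mice carried the same alleles, written Pgrcre/+mPgrLsL/+ in the sample labels and Pgrcre/+PgrBLsL/+ in the series design, with Cre under the promoter of the progesterone receptor gene Pgr, so controls and treated mice share the engineered receptor. Tumours of 0.5 to 1 cm across were exposed for 24 h to a placebo pellet (3 arrays) or to a pellet that releases RU486 (3 arrays). RU486 (mifepristone) is an antagonist of the progesterone and glucocorticoid receptors. No source used here gives the age or strain of the mice, or says that the 3 samples of a group are separate mice. P-values therefore cover only the spread between samples, which may be technical.

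D cyclins are the entry point of growth signals into the cell cycle. They bind CDK4 or CDK6, and the complexes phosphorylate the retinoblastoma protein, which releases E2F transcription factors. E2F then drives transcription of the E cyclins, which activate CDK2 and carry the cell into S phase. In the ovary, Ccnd2 is the D cyclin known for the proliferation of granulosa cells in response to follicle-stimulating hormone.

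Every value is a score that had been centred and scaled for each probe over the 6 arrays, to a mean of 0 and an SD of 1. A score of 1 therefore means 1 SD of that probe above its own mean. Brightness and fold change cannot be recovered, levels of different genes cannot be set against each other, and whether a probe stood above background is unknown. No source used here gives the direction of the scale, and a higher score was read as a brighter probe. The number of arrays limits the precision. The standardised difference is the mean RU486 score minus the mean placebo score, cannot pass 1.83 in size for the deposited scores over all 6 arrays, and was tested with limma's ordinary statistic with Benjamini-Hochberg adjustment over all 21878 genes. Because each probe sums to 0, the means of the 2 groups are equal in size and opposite in sign.

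The cyclin genes other than Ccnd2 parted the treatments, and the kinase genes did not. Ccnd1, Ccnd3 and Ccne1 had lower scores on all 3 RU486 arrays than on any placebo array, and Ccne2 had higher ones. Ccnd2, Cdk2, Cdk4 and Cdk6 had overlapping groups. The groups did not overlap in 4 of the 8 genes, against 22.0% of all genes. At an unadjusted p of 0.05, 3 of the 8 genes were lower, against 7.08% of all genes, and 1 was higher, against 5.24%. The 8 genes and all lists below were chosen with earlier results of these data known. Shares of all genes set beside their counts are therefore a description and not an independent test. None of the 8 passed an adjusted p of 0.05 in limma (0 genes, smallest adjusted p = 0.247), where 0.00457% of all genes did. The median difference was -0.71 over the 8 genes and -0.06 over all genes. The share of lower genes among all those at an unadjusted p of 0.05 was 57.4% with the scores as deposited, 68.7% with arrays centred on their medians and 73.8% after quantile normalization, while the counts for the 8 genes stayed at 3 lower and 1 higher. It was 51.3% with array weights and ran from 40.4% (without RU486 array 2) to 80.4% (without placebo array 1) with 1 array left out. Centring moved the median difference of all genes from -0.06 to 0.06. With array weights it was -0.28, and with 1 array left out it ran from -0.36 (without RU486 array 2) to 0.20 (without placebo array 3). Median scores of the arrays ran from -0.384 to 0.212 in placebo and from -0.363 to -0.0875 in RU486.

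**Figure D1:**
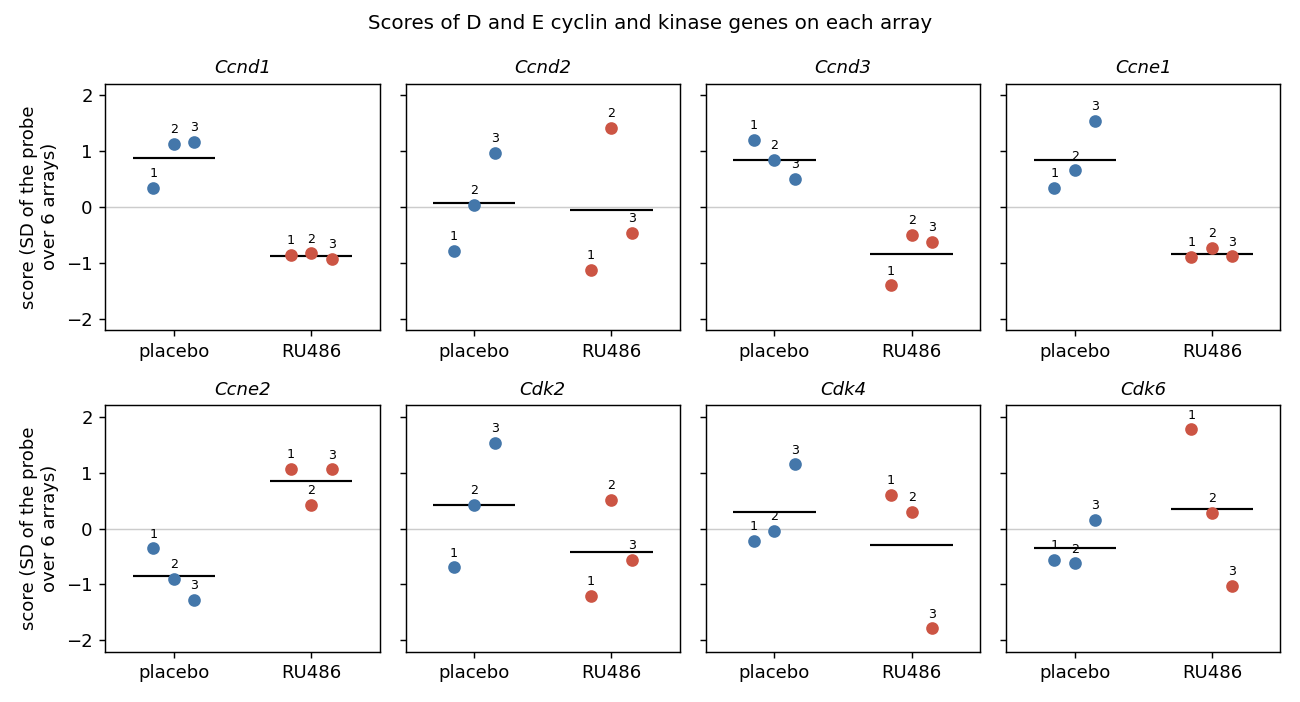
Score of each gene on each array, in SDs over the 6 arrays, with the replicate number above each point and the group mean as a bar. Ccnd3 is the mean of its 2 probes. The groups are apart for Ccnd1, Ccnd3, Ccne1 and Ccne2, and overlap for Ccnd2, Cdk2, Cdk4 and Cdk6.

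Cyclin D1 is the most studied partner of CDK4 and CDK6 in epithelial cells and a known responder to growth factor and steroid signals. Its gene Ccnd1 (Entrez gene 12443, probe A_66_P111562) had scores of 0.341, 1.12 and 1.15 on placebo arrays 1 to 3, and of -0.860, -0.834 and -0.925 on RU486 arrays 1 to 3. The RU486 arrays lay close together, with an SD of 0.0466 (n = 3) against 0.461 (n = 3) in placebo, and the gap between the groups was 1.17. The difference was -1.75 (SE 0.268, 95% interval -2.49 to -1.003), with a limma unadjusted p of 0.00285 and an adjusted p of 0.247. Placebo array 1 was the lowest of its group. Without it the difference was -2.01 and the adjusted p was 0.0734, the smallest for this gene under any setting tried, and the largest was 0.59. By RefSeq gene positions Ccnd1 overlaps LTO1, whose difference was -0.60 with overlapping groups.

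Cyclin D2 did not part the groups. Ccnd2 (Entrez gene 12444, probe A_52_P53906) had scores of -0.790, 0.0312 and 0.957 on placebo arrays 1 to 3, and of -1.13, 1.40 and -0.473 on RU486 arrays 1 to 3. Both the highest and the lowest score came from an RU486 array. The difference was -0.13 (SE 0.91) with a 95% interval of -2.66 to 2.40. It turned positive when placebo array 3 (0.313), RU486 array 1 (0.399) or RU486 array 3 (0.0713) was left out. On each array the Ccnd1 score minus the Ccnd2 score was 1.13, 1.09 and 0.198 in placebo, and 0.267, -2.24 and -0.452 in RU486, so these gaps also overlapped between the groups. That Ccnd1 and Ccnd2 respond differently was not tested. The lncRNA gene 9330179D12Rik overlaps Ccnd2 by RefSeq positions, and its difference was -1.36 (unadjusted p = 0.0878) with overlapping groups. Among markers listed for granulosa and other sex cord cells, 9 of 10 were measured, and their mean score ran from -0.539 to 0.603 in placebo and from -0.868 to 0.746 in RU486.

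Cyclin D3, the D cyclin best known in lymphoid cells and differentiating tissues, was read by 2 probes with much the same scores. The probe A_51_P238448 had scores of 1.27, 0.825 and 0.452 on placebo arrays 1 to 3, and of -1.31, -0.526 and -0.715 on RU486 arrays 1 to 3. The probe A_55_P2041075 had 1.11, 0.849 and 0.544, and -1.50, -0.471 and -0.528. On no array did they differ by more than 0.194, and both had RU486 array 1 as their lowest and placebo array 1 as their highest. Fitted alone over all 37932 probes, they had differences of -1.70 (SE 0.334, limma adjusted p = 0.336) and -1.67 (SE 0.372, adjusted p = 0.368). At an unadjusted p of 0.05 were 5 of the 9 probes, against 11.7% of all probes. The groups did not overlap in the same number, 5 of 9, against 22.1% of all probes, and 0 of 9 passed the adjusted p, against 0.00527%. The mean of the Ccnd3 probes (Entrez gene 12445) differed by -1.68 (SE 0.347, 95% interval -2.65 to -0.72, adjusted p = 0.302), and over the settings tried its adjusted p ran from 0.0803 to 0.614.

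In bulk tumour RNA, fewer cells of a type and less RNA per cell cannot be told apart. Of 12 lists of cell type markers, 3 had mean scores lower on every RU486 array than on any placebo array, by gaps of 0.0119, 0.0315 and 0.0154. These are gaps of means over several genes and cannot be set against the gap of a single gene. Single genes part the groups in 22.0% of all cases, which is a share of genes and not of list means. T and NK cell markers (10 measured of 12, 7 lower and 0 at an unadjusted p of 0.05) ran from 0.0611 to 0.515 in placebo and from -0.513 to 0.0493 in RU486. Neutrophil markers (11 of 11 measured, 3 lower at an unadjusted p of 0.05, against 7.08% of all genes) ran from -0.00674 to 0.789 and from -0.560 to -0.0382. Red cell markers (5 of 7 measured, 0 at that p) ran from -0.176 to 1.51, with placebo array 1 alone high, and from -0.508 to -0.191. The other 9 lists overlapped. Scores keep no level, so which defining markers are absent, and whether the tissue label holds, cannot be read from them. The part of these cells in the scores of Ccnd3 or of any other gene here was not tested.

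RefSeq lists 2 separate starts for Ccnd3. The 250 bases before each are shown because both probes of the gene differed alike, with capitals marking the half-site of the cyclic AMP response element (TGACG or its reverse complement CGTCA), a motif of cyclin D promoters. Coordinates are on GRCm38.p6, plus strand, for chr17:47504801-47505050 and chr17:47593217-47593466.
Ccnd3 first start: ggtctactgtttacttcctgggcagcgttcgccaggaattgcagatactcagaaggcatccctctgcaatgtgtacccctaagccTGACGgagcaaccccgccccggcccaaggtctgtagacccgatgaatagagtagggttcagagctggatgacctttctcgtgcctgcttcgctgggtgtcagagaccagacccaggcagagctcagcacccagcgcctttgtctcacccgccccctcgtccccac
Ccnd3 second start: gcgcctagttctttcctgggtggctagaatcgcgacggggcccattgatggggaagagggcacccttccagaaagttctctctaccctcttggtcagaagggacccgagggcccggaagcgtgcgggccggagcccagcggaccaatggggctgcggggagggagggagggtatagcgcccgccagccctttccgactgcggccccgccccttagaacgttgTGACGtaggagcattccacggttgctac
Each window held 1 match, beginning 165 and 28 bases before the start. Of 32536 distinct windows of this length in the RefSeq table, 17.9% held one. Which start either probe reads was not analysed here. On the opposite strand Ccnd3 overlaps Bysl, a gene of ribosome assembly, whose difference was -1.63 with groups apart (unadjusted p = 0.0169), and no source used here gives the strand that each probe reads.

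**Figure D2:**
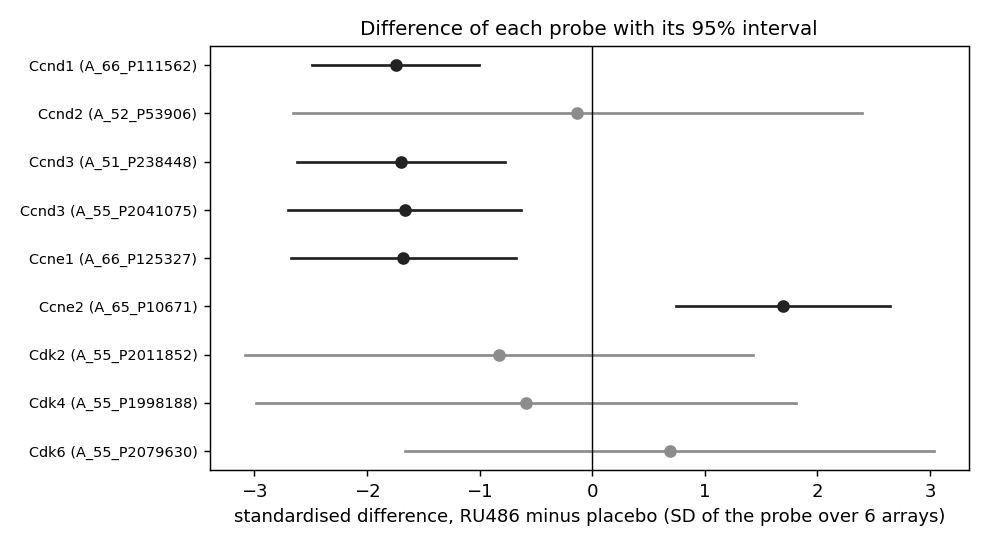
Standardised difference, RU486 minus placebo, of each of the 9 probes with its 95% interval, in SDs over the 6 arrays. Black marks probes whose groups do not overlap and grey those that do. The 2 Ccnd3 probes lie at -1.70 and -1.67, Ccne2 alone lies to the right with an interval above 0, and the intervals of Ccnd2 and the kinases span 0.

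The E cyclins, the activating subunits of CDK2 and themselves targets of E2F, had differences of opposite sign. Ccne1 (Entrez gene 12447, probe A_66_P125327) had scores of 0.338, 0.649 and 1.53 on placebo arrays 1 to 3, and of -0.902, -0.728 and -0.886 on RU486 arrays 1 to 3. As with Ccnd1, the RU486 arrays were tightly grouped, with an SD of 0.0963 against 0.618 in placebo (n = 3 each). The difference was -1.68 (SE 0.361, 95% interval -2.68 to -0.67, unadjusted p = 0.00969, adjusted p = 0.306 in limma). Placebo array 3 was the highest, and without it the difference was -1.33, with an adjusted p of 0.40. Over all settings tried the adjusted p ran from 0.0803 to 0.64 for Ccne1 and from 0.0803 to 0.627 for Ccne2.

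Ccne2 (Entrez gene 12448, probe A_65_P10671) had scores of -0.356, -0.902 and -1.28 on placebo arrays 1 to 3, and of 1.06, 0.424 and 1.06 on RU486 arrays 1 to 3. Every RU486 array lay above 0 and every placebo array below it, with a gap of 0.781 between the groups. The difference was 1.69 (SE 0.342, 95% interval 0.74 to 2.64, unadjusted p = 0.00772, adjusted p = 0.292 in limma). The Ccne1 score minus the Ccne2 score was 0.694, 1.55 and 2.81 on the placebo arrays, and -1.96, -1.15 and -1.94 on the RU486 arrays. The placebo array with the highest Ccne1 score, array 3, had the lowest Ccne2 score of all 6. By RefSeq positions Ccne2 overlaps Ints8, a subunit gene of the Integrator complex, whose difference was 0.08 with overlapping groups. A single probe carries this gene, so no second probe bears on its direction.

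The 250 bases before the Ccne1 start are shown because this gene had lower scores together with the E2F genes described below. Capitals mark the E2F-type core TCCCGC or its reverse complement GCGGGA, with the window at chr7:38107491-38107740 on GRCm38.p6, minus strand.
Ccne1: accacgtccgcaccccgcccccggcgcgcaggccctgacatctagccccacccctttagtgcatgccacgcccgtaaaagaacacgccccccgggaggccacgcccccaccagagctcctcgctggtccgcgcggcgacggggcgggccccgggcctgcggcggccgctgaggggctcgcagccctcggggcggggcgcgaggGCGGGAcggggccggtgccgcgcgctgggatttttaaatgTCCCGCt
The window held 2 matches, beginning 47 and 7 bases before the start, and 17.0% of all windows held at least 1. A match in letters is a description and not a binding site. Neither the half-site TGACG nor the E-box CACGTG is in these letters. Of the 8 genes, 5 had windows in the RefSeq table, and those of Ccnd1, Ccnd2 and Ccne2 are not shown.

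None of the 3 kinase genes parted the groups, and each interval spanned 0. Cdk2 (Entrez gene 12566, probe A_55_P2011852), the partner of the E cyclins, had scores of -0.694, 0.415 and 1.53 on placebo arrays 1 to 3, and of -1.20, 0.511 and -0.559 on RU486 arrays 1 to 3. The groups overlapped widely. The difference was -0.83 (SE 0.813, 95% interval -3.09 to 1.42, adjusted p = 0.74). It stayed negative when any 1 array was left out, from -1.39 without placebo array 1 to -0.28 without placebo array 3. Pmel, which overlaps Cdk2 by RefSeq positions, stood at 0.014 with overlapping groups.

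Cdk4 (Entrez gene 12567, probe A_55_P1998188) had scores of -0.218, -0.0400 and 1.14 on placebo arrays 1 to 3, and of 0.601, 0.298 and -1.79 on RU486 arrays 1 to 3. RU486 array 3 alone was far below the others, and the other RU486 arrays lay above placebo arrays 1 and 2. The difference was -0.59 (SE 0.864, 95% interval -2.99 to 1.81), and without RU486 array 3 it was 0.155. Its neighbour Tspan31, which overlaps it on the opposite strand, stood at -0.05 with overlapping groups.

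Cdk6 (Entrez gene 12571, probe A_55_P2079630), the other partner of the D cyclins, had scores of -0.565, -0.624 and 0.160 on placebo arrays 1 to 3, and of 1.77, 0.282 and -1.02 on RU486 arrays 1 to 3. The RU486 arrays held both the highest and the lowest score. The difference was 0.69 (SE 0.846, 95% interval -1.66 to 3.03), and it was -0.0281 without RU486 array 1. The Cdk4 score minus the Cdk6 score was 0.346, 0.584 and 0.985 on the placebo arrays, and -1.17, 0.0167 and -0.762 on the RU486 arrays. These gaps did not overlap between the groups although neither kinase parted them alone, and the pair was set side by side with the values known, so no test is given.

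The windows before the Cdk2 and Cdk4 starts are shown for contrast with that of Ccne1, since these genes did not part the groups. Capitals mark the E2F-type core, the half-site TGACG and the E-box CACGTG, the motif of MYC, on either strand. No base lay in 2 motifs. On GRCm38.p6 the windows are chr10:128705052-128705301 on the minus strand and chr10:127063285-127063534 on the plus strand.
Cdk2: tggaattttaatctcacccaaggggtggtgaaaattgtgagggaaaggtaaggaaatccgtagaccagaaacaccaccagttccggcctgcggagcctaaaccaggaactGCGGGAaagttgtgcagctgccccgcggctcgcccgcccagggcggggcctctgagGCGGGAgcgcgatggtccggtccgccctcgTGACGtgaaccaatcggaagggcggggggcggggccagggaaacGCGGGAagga
Cdk4: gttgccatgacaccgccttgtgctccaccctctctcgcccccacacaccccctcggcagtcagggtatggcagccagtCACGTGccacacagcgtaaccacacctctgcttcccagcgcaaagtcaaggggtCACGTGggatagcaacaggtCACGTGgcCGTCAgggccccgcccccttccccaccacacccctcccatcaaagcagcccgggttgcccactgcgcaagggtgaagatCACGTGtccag
Cdk2 held 3 E2F-type cores, 1 more than Ccne1, and 1 half-site. Cdk4 held 4 E-boxes, beginning 172, 118, 98 and 11 bases before its start, and 1 half-site, where 6.04% of all windows held an E-box. The Cdk6 window held 1 match of each of the 3 motifs.

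The retinoblastoma protein and the E2F factors are what the cyclins act through. Of 13 pocket protein and E2F genes, 5 had an unadjusted p under 0.05, all lower, against 7.08% of all genes that were lower at that p, and 0 passed the adjusted p. All 13 differences were below 0 (median -1.36), against 51.6% of all genes, but E2f4 at -0.0446 was above 0 after array centring (0.0769), after quantile normalization (0.0785) and with array weights (0.329). E2f7 and E2f8, the atypical E2F genes that repress transcription, stood at -1.77 (SE 0.228) and -1.77 (SE 0.233), and the activator gene E2f1 at -1.69 (SE 0.344). Groups were apart in 6 of the 13 genes, all lower, against 10.8% of all genes that were apart and lower. They overlapped in the other 7, among them Rb1, the retinoblastoma gene, at -0.77. The pocket protein gene Rbl1 stood at -1.55 with groups apart. Mean scores of the list ran from 0.142 to 1.04 in placebo and from -1.01 to -0.123 in RU486.

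Of 8 genes that assemble or activate the kinases, 4 had an unadjusted p under 0.05, all lower, against 7.08% of all genes, with a median of -1.41. Cdc25a, the phosphatase gene that activates CDK2, stood at -1.74 (SE 0.283), Mnat1, which codes for a subunit of the CDK-activating kinase, at -1.60 (SE 0.436), and Cks1b at -1.60 (SE 0.444). The catalytic subunit of that activating kinase, Cdk7, stood at -1.27 with overlapping groups. Of 14 genes of cyclin and inhibitor turnover, 2 had an unadjusted p under 0.05, both lower, with a median of -0.18, and -0.96 with array weights. That share, 14.3%, is near the 12.3% of all genes and is no result about the list. They were Usp2 (-1.74, SE 0.283), a deubiquitinase gene whose product stabilises cyclin D1, and Skp2 (-1.56, SE 0.474), the F-box gene of the ligase that degrades p27. Cul1, the scaffold of that ligase, stood at -1.11 with overlapping groups.

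The 7 CDK inhibitor genes were split, with 2 differences below 0 and 5 above, and a median of 0.52, where 51.6% of all genes were below 0. At an unadjusted p of 0.05, 1 was lower and 1 higher, against 7.08% and 5.24% of all genes. With groups apart, 1 was lower and 1 higher, against 10.8% and 11.2%. Cdkn2d, an INK4 gene whose product binds CDK4 and CDK6, stood at -1.70 (SE 0.332) with groups apart. Cdkn2a, the INK4A and ARF gene, stood at 1.60 (SE 0.437), also with groups apart, and Cdkn2c at -1.24 with overlapping groups. Among 21 mitogen response genes 3 had an unadjusted p under 0.05, all lower, with a median of -0.21. This too is 14.3%, near the 12.3% of all genes, and is no result about the list. These were Hbegf (-1.77, SE 0.216), an EGF receptor ligand gene, Fos (-1.54, SE 0.488), a gene of the AP-1 factor that acts on the Ccnd1 promoter, and Etv5 (-1.49, SE 0.529), a target of ERK signalling.

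Other cyclins and kinases were mixed. Of 17 measured cyclin genes of 18 listed, 4 had an unadjusted p under 0.05, all lower, against 7.08% of all genes that were lower at that p. The median was 0.14, and -0.56 with array weights. The mitotic cyclin genes Ccnb2 (-1.72, SE 0.309) and Ccna2 (-1.72, SE 0.313) were among them, as was Ccnj (-1.71, SE 0.317). Of 15 other CDK genes 2 reached that p (13.3%, near the 12.3% of all genes). Lower was the mitotic kinase gene Cdk1 (-1.73, SE 0.297), and higher was Cdk20 (1.62, SE 0.422). Cdk19, a kinase gene of the Mediator complex, stood at -1.40 (SE 0.588) with groups apart and did not reach that p.

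Of 20 markers of S phase and mitosis, 19 were lower at an unadjusted p of 0.05, against 7.08% of all genes. This list too was chosen with earlier results of these data known, so the comparison with all genes is only a description. All 20 were lower with groups apart, against 10.8% of all genes. The median was -1.69, against -0.06 over all genes. Mcm5 of the replicative helicase stood at -1.76 (SE 0.249) and the mitotic kinase gene Plk1 at -1.73 (SE 0.288). Cdk1 and Ccna2, named above, are in this list too. Mean scores of the list were 0.424, 0.609 and 1.44 on placebo arrays 1 to 3, and -0.784, -0.624 and -1.07 on RU486 arrays 1 to 3. Among the placebo arrays, array 3 had the highest and array 1 the lowest mean, as in Ccnd1 and Ccne1, whereas in Ccne2 and Ccnd3 array 1 was the highest and array 3 the lowest. The mean over all genes had the same order as the list, at -0.304, 0.108 and 0.235 on placebo arrays 1 to 3. That order is therefore not particular to the list, Ccnd1 or Ccne1. None of the genes in these 8 lists passed the adjusted p in limma.

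**Figure D3:**
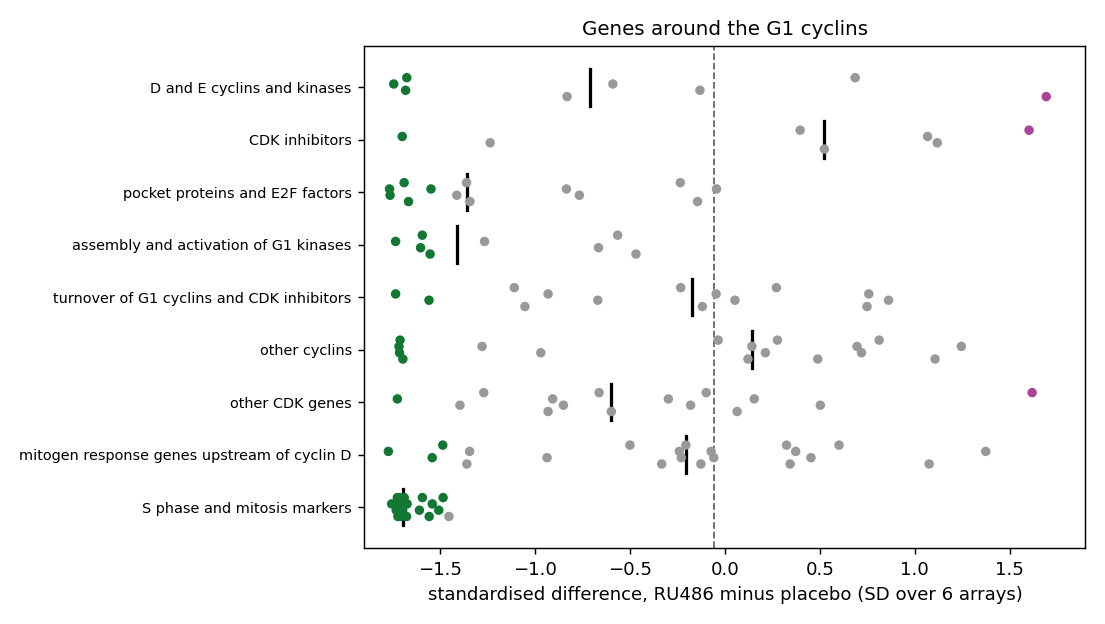
Standardised difference of every measured gene in the lists around the G1 cyclins, in SDs over the 6 arrays, 1 point a gene. Genes with an unadjusted p under 0.05 are green where lower and purple where higher, the rest are grey, black bars are list medians and the dashed line is the median of all genes (-0.06). The S phase and mitosis list is gathered near -1.69, the E2F list lies below 0 on the deposited scores (E2f4 turns with other scalings), and the CDK inhibitors lie on both sides.

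For each gene the nearest score profiles among the other 21877 genes were found by the root mean square difference of scores over the 6 arrays, in SDs. Nearest to Ccnd1 were Tmem86b (0.0439) and Gemin2 (0.0755), and nearest to Ccnd2 were Appl1 (0.0358) and Mtap (0.0938). Ccnd3 was closest to Ube2s (0.0629), a ubiquitin-conjugating enzyme gene of mitotic exit, and Fkbp9 (0.0887). Ccne1 was closest to Hmgb2 (0.0421), a chromatin protein gene, and Mad1l1 (0.0508), a spindle checkpoint gene. Nearest to Ccne2 were Esp6 (0.0408) and Ttc22 (0.0675). For the kinases these were Adamts5 (0.0714) and Hip1 (0.0722) for Cdk2, Gm15501 (0.0716) and Hspe1 (0.147) for Cdk4, and Psrc1 (0.0613) and Olfr1372-ps1 (0.0979) for Cdk6. Profiles of 6 values searched over this many genes give close neighbours for any gene, and nothing about shared control follows from them.

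**Figure D4:**
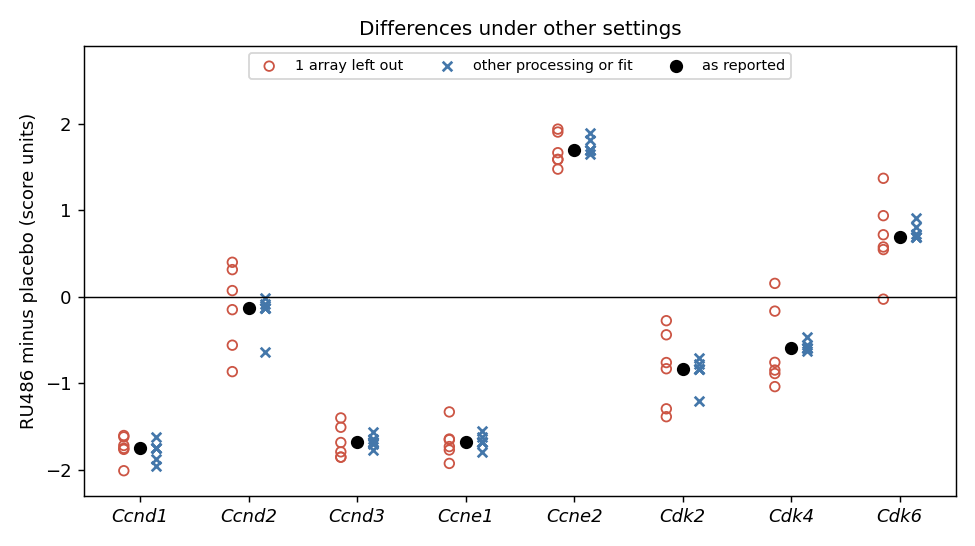
Difference of each gene as reported (black), with 1 array left out (open circles) and under the other settings (crosses), in score units. Ccnd1, Ccnd3 and Ccne1 stay below 0 and Ccne2 above 0 throughout, whereas Ccnd2, Cdk4 and Cdk6 have values on both sides of 0.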

How the data were processed

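The values deposited by the authors are scores for 37932 probes on 6 arrays. The values themselves show that each probe was centred to 0 and scaled to an SD of 1 over the arrays. Partek is the tool named, per the submitters' processing notes, without a version. No source used here gives the background correction, array normalization, probe filters or whether log or linear values were scaled. No 2 arrays held identical values (0 pairs).

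Probes were named from the platform annotation (24903 with 1 symbol, 0 with several, 13029 with none listed). Of these, 24627 matched the RefSeq table of GRCm38.p6 by Entrez ID, which changed 0 symbols. Probe scores of a gene were averaged (19235 genes with 1 probe, 2643 with more). RU486 was compared with placebo for every gene, over the 6 arrays, in limma 3.58.1 (R 4.3.3). The test was the ordinary statistic on 4 residual degrees of freedom, which for a single probe is the same before and after scaling, as was checked on simulated data. P-values are two-sided. Filters on low values and an exact permutation test (smallest p 0.1) were not used.

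Groups and replicate numbers came from the sample titles. Genes named are all 8, the 3 of smallest unadjusted p in each pathway list, and the 2 nearest profiles of each gene. LTO1, 9330179D12Rik, Bysl, Ints8, Pmel and Tspan31, the measured overlapping neighbours, were named, as were Rb1, Rbl1, E2f4 and Cdk7, after their values were seen. The members and all lists were chosen with earlier results of these data known. Promoter windows are the 250 bases before RefSeq gene starts. Alternatives were array centring, quantile normalization, eBayes moderation, array weights, other probe rules, a replicate block and leaving out each array.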

Additional observations from a re-analysis of the deposited data

How the results depend on the processing

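Under the 13 alternatives, 0 of the 8 genes passed an adjusted p of 0.05 in limma, and 4 stood at an unadjusted p of 0.05 in each of them except with the replicate block. With the block it was 3, without Ccnd3 (difference -1.68, unadjusted p = 0.0672, adjusted p = 0.59). The other probe rules leave the unadjusted p of a gene with 1 probe as it was, so here they could bear only on Ccnd3. With eBayes moderation all 8 genes had the same SE of 0.757, so their p followed the size of the difference alone. Deviations of same-numbered arrays from their group means had correlations across genes of 0.254, 0.0539 and -0.272 for numbers 1 to 3. With 3 arrays a group these values cannot show whether the numbers pair the samples. With 1 array left out, differences ran from -2.01 to -1.60 for Ccnd1, -1.85 to -1.40 for Ccnd3, -1.93 to -1.33 for Ccne1 and 1.48 to 1.94 for Ccne2. They crossed 0 for Ccnd2 (-0.866 to 0.399), Cdk4 (-1.04 to 0.155) and Cdk6 (-0.0281 to 1.37), and the cause was not tested. No other setting turned the sign of any of the 8 genes. Chosen after seeing the data, centring, quantile normalization and array weights were also run on the pathway lists, with array weights turning the median of the other cyclins from 0.14 to -0.56. The count of all genes at an unadjusted p of 0.05 was 2695, and became 5647 with array weights, 1535 with the block, and 1497 to 3864 with 1 array left out. Signal over background is unknown, and a filter on dim probes could not be run.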
